A study of Bos taurus with 48 samples.

Results

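The leukocytes of the control calves, which were housed together with their dams and stayed unweaned, were compared between d 2 and d 0. The comparison took the d 2 and d 0 libraries of calves 1755, 1759, 1763, 1789, 1802 and 1803, paired by calf, which made 12 of the 48 libraries of the series. In the series, total blood leukocytes of 12 calves were sequenced on d 0, 1, 2 and 7, with 6 control calves and 6 weaned calves and 1 library per calf and day. All calves were cattle (Bos taurus) of the breed Continental and the developmental stage calf, per the labels. The study describes them as spring-born, single-suckled, intact male Simmental calves that had grazed with their dams and had been vaccinated against respiratory viruses before the trial. The treatment of the control calves was "housed with their dam". The d 0 sample was taken before housing and the d 2 sample in a shed with slatted floors, on silage and concentrate. The weaned calves, which serve here for 1 later comparison, were "housed and simultaneously weaned" and were sampled on the same days. No group stayed outdoors, so housing, the new diet, regrouping, repeated sampling and the passing of days cannot be told apart.

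Housing at the end of the grazing season is a known stressor of beef calves. In cattle, as in other mammals, stress hormones released from the adrenal gland change the traffic of white blood cells within hours to days, typically with more neutrophils and fewer lymphocytes in the blood. The neutrophil is the short-lived granulocyte that reaches bacteria first, whereas dendritic cells take up and present antigen, and Toll-like receptors in dendritic cells and other leukocytes sense microbial nucleic acids and cell wall components. Because whole leukocytes were sequenced, fewer cells of a type and less RNA per cell cannot be told apart.

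The deposited values were raw counts of reads per gene. Total counts were 2944964 to 3771300 in the d 0 libraries and 3443620 to 4112564 in the d 2 libraries, except the d 2 library of calf 1759, which held 1662995 counts. Levels are given in CPM, counts per 1000000 of the library total after TMM scaling (trimmed mean of M-values). Under that scaling a floor of 3 counts was set, below which a gene was read as not told from 0. It lay at 0.697 to 0.99 CPM in 11 libraries and 2.04 CPM in the d 2 library of calf 1759. This floor covers counting error only. For 30 pairs of libraries of the same day, chi-square per degree of freedom was 3.82 to 23.1, where counting noise alone gives a value near 1. Over all genes together, libraries of the same day thus differed by more than counting noise. With 1 library per calf and day, calves and library handling cannot be told apart in this value. In 4 control calves the d 0 and d 2 libraries shared a flowcell, and in the other 2 they did not, so day and flowcell are mixed there. Symbols were those of human orthologs that the study pairs with bovine identifiers. They named 644 of the 25669 genes, and most of the genes they name were ones the study had called on d 7, so the named genes are not a sample of all genes. Of the lists of blood cell markers, no T cell, B cell, plasma cell or monocyte marker could be named, whereas some markers of neutrophils, natural killer (NK) cells, dendritic cells and eosinophils could be. Of these, the CAMP genes of neutrophils and CCL24 of eosinophils (6 counts over the d 0 and 9 over the d 2 libraries) lay near or under the floor.

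Before any comparison between days, each library was set beside the others over the 100 genes that differed most between the 10 calves other than 1755 and 1758. Over these genes 44 of the 48 libraries correlated best with another library of the same calf, as did 11 of the 12 libraries compared here. The exception was the library labelled d 2 of calf 1755. Its correlation with the 3 other libraries of that calf was -0.166 at most, and it correlated best (r = 0.65) with the d 0 library of calf 1758, a weaned calf, which in turn correlated with its own calf at 0.0987 at most. In the other 5 control calves the d 0 and d 2 libraries correlated at 0.634 to 0.935. The genes had been chosen for differing between the calves other than 1755 and 1758, so the match of those calves with themselves is partly built in, and calves 1755 and 1758 were left out of the choice after they had been seen to stand apart. The libraries of calf 1755 labelled d 0 and d 1 correlated at 0.837. The same library stood apart with 200 genes (44 of 48 libraries best with their own calf) and with 500 genes (43 of 48). Another check used 12214 genes, as deviations from the day means of the 6 control calves. It set d 2 libraries against d 0 libraries of control calves only, so calf 1758 was not a possible match. Among these, the d 2 library of calf 1755 correlated best with its own d 0 library (0.304), as did those of calves 1763, 1802 and 1803. Those of calves 1759 and 1789 did not. These correlations share genes and are a description only, and no library was moved to another calf. Most counts, list medians and estimates of genes are therefore also given without calf 1755.

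Single genes were then compared across the days of calf 1755. ALOX15, the lipoxygenase that eosinophils carry at a high level, stood at 334, 317 and 254 CPM of the library total in the libraries of calf 1755 labelled d 0, d 1 and d 7, and at 0.545 CPM in that labelled d 2. In the d 0 library of calf 1758 it was 238 CPM of the library total, so on this gene the library labelled d 2 of calf 1755 was unlike both. In the other 5 control calves ALOX15 was 108 to 286 CPM on d 0 and 74.4 to 414 CPM on d 2. IL5RA, the receptor chain through which interleukin 5 sustains eosinophils, stood at 47.7, 32.8, 1.63 and 2.75 CPM of the library total in the libraries of calf 1755 labelled d 0, d 1, d 2 and d 7, so that it was low on d 7 as well. The summed level of the 5 eosinophil, basophil and mast cell markers that could be named (13 in the list) was 118 to 374 CPM on d 0. On d 2 it was 4.69 CPM in calf 1755 and 82.2 to 460 CPM in the other calves. FBN1, the microfibril protein fibrillin, was 152 CPM on d 0 and 3.58 CPM on d 2 in calf 1755, against 4.27 to 11 CPM and 3.22 to 16.9 CPM in the other calves. The d 0 library of calf 1758 held FBN1 at 50.2 CPM of the library total. RYR3, a calcium release channel, was 45.9 and 0.551 CPM in calf 1755 and 0.281 to 8.19 CPM in the other calves. These genes were picked after their values were seen. With calf 1755, the estimated log2 change of ALOX15 was -0.37 ± 0.64 (SE), and without it 0.25 ± 0.27. In the same way IL5RA moved from -0.37 ± 0.59 to 0.38 ± 0.39, FBN1 from -0.56 ± 0.64 to 0.39 ± 0.25 and RYR3 from -1.27 ± 0.74 to 0.04 ± 0.43.

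**Figure D1:**
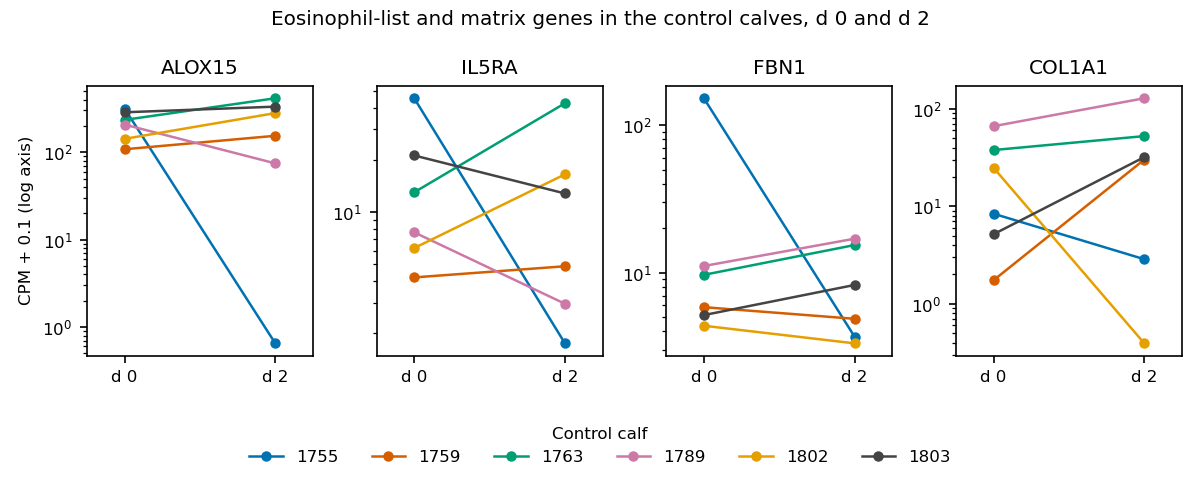
CPM + 0.1 on a log axis for ALOX15, IL5RA, FBN1 and COL1A1 on d 0 and d 2, with 1 line per control calf (n = 6). The line of calf 1755 drops from 316 to 0.551 CPM in ALOX15 and from 152 to 3.58 CPM in FBN1, while COL1A1 falls most steeply in calf 1802 (24.7 to 0.292 CPM) and is higher on d 2 in 4 of 6 calves.

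Changes by d 2 were computed with edgeR's quasi-likelihood F-test on the counts of the 12 libraries, with calf as a block and 13859 genes tested. Called genes had to reach 2-fold and pass the Benjamini-Hochberg adjustment at 0.05. None of the 13859 genes was called (0.0%), and the smallest adjusted p was 0.241, in 2 genes. Before adjustment 445 genes were higher on d 2 at p under 0.05 (3.21%) and 838 lower (6.05%), together 1283 (9.26%). Of these, 36 higher and 60 lower genes had an estimated change of at least 2-fold. The median log2 change over all genes tested was -0.002, with 49.8% of the estimates above 0 and 50.2% below. In all 6 calves 316 genes were higher (2.28%) and 256 lower (1.85%), and 5 higher (0.0361%) and 11 lower genes (0.0794%) had d 0 and d 2 levels that did not overlap. Of these genes only DNAL1, a dynein light chain picked after its values were seen, had a symbol, at 1.19 ± 0.766 CPM (SD) on d 0 and 0.308 ± 0.191 CPM on d 2.

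Without calf 1755 no gene was called among 13591 (0.0%) and the smallest adjusted p was 0.313. An unadjusted p under 0.05 was then found for 358 genes (2.63%), of which 172 were higher (1.27%) and 186 lower (1.37%). Of the 838 lower genes of the 6 calves, 168 (20.0%) were among the 186 without calf 1755. Of the 589 named genes tested, 15 were higher and 86 lower at an unadjusted p under 0.05 (17.1%), with a median log2 change of -0.29, and without calf 1755 16 of 576 were higher and 25 lower, with a median of -0.15. Without calf 1755, 379 of the 576 named genes had estimates below 0, against 6504 of all 13591 genes. The counts of named genes below, and their estimates below 0, are to be read against these figures. Leaving out calf 1789 raised the count at an unadjusted p under 0.05 to 3011 genes (1033 higher and 1978 lower) and 1 gene, ENSBTAG00000039891, was then called (adjusted p = 0.0338 in the edgeR test). In the 4 calves with both libraries on 1 flowcell the count was 284, with 185 higher and 99 lower, from fewer calves.

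**Figure D2:**
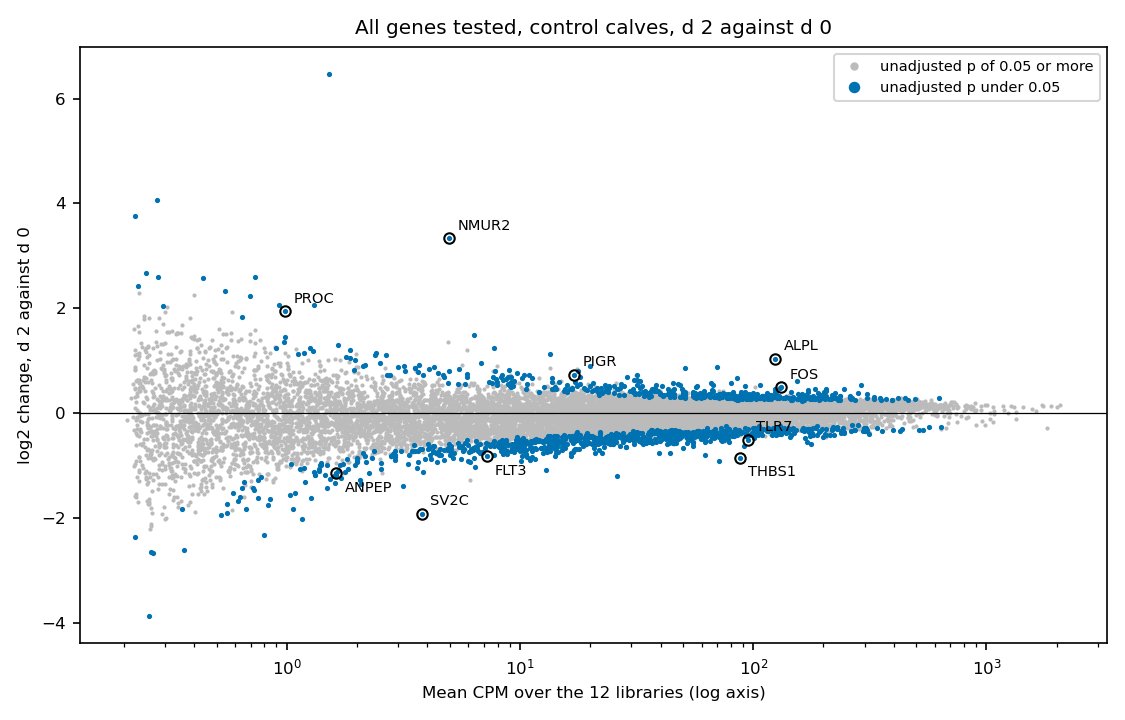
Estimated log2 change of each of the 13859 genes tested (d 2 against d 0, 6 control calves) against its mean CPM on a log axis. Blue points are the 1283 genes with an unadjusted p under 0.05 and circles are 10 genes described in the text. No gene was called after adjustment.

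The 2 genes with the smallest p had no symbol. ENSBTAG00000019741 was lower on d 2 in all 6 calves, at 35.8 ± 20.7 CPM (SD) on d 0 and 16.2 ± 12.8 CPM on d 2. Its levels were 12.8 CPM at the lowest, 35.2 CPM in the median and 72.5 CPM at the highest on d 0, and 7.28, 10.5 and 39.7 CPM on d 2, so the days overlapped. The log2 change was -1.20 ± 0.21 (adjusted p = 0.241 in edgeR's quasi-likelihood F-test), and -1.33 ± 0.21 without calf 1755 (adjusted p = 0.313 in the same edgeR test). DESeq2 and the edgeR fit with no filter on low counts called this gene. ENSBTAG00000039891 had 0 counts in the 6 d 0 libraries and 66 counts on d 2, of which calf 1755 gave most (13.2 CPM), calf 1803 3.1 CPM, calf 1789 1.82 CPM and the others 0. Against 3 counts per library the mean of d 2 is at least 3.5-fold higher (adjusted p = 0.241 in the edgeR test), which rests on the library labelled d 2 of calf 1755. Without that calf the mean on d 2 was 0.983 ± 1.42 CPM, near the floor. ENSBTAG00000020257 was higher in all 6 calves, from 35.6 ± 10.5 to 66.0 ± 23.7 CPM (log2 change 0.86 ± 0.19, and 0.64 ± 0.16 without calf 1755). ENSBTAG00000015082 was lower in 5 of 6 calves, from 28.3 ± 5.46 to 16.5 ± 2.51 CPM (log2 change -0.76 ± 0.19, and -0.69 ± 0.21 without calf 1755). The exception was calf 1789, at 17.4 and 17.7 CPM.

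Among named genes, the 15 with the smallest p in each direction are described with the members of the lists. In edgeR's quasi-likelihood F-test with Benjamini-Hochberg adjustment, each named gene below had an adjusted p of 0.495 or more with 6 calves, and 0.865 or more without calf 1755. None passed. For single genes an exact two-sided permutation test of the signs of the within-calf differences was also run, which with 64 sign patterns cannot give a p below 0.0312. Of the 62 genes described, 12 reached this smallest value, and in none did d 0 and d 2 levels separate without overlap.

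Genes of neutrophils had higher mean levels on d 2. ALPL is the alkaline phosphatase of the neutrophil surface. Its level was 38.1 CPM in the lowest calf, 58.4 CPM in the median and 195 CPM in the highest on d 0, and 43.4, 171 and 309 CPM on d 2. It was higher in 5 of 6 calves, most of all in the library labelled d 2 of calf 1755 (38.1 to 309 CPM), and lower in calf 1763. Its estimated log2 change was 1.04 ± 0.32 (unadjusted p = 0.00487) and 0.68 ± 0.24 without calf 1755 (unadjusted p = 0.0143). PGLYRP1, a peptidoglycan-binding protein of neutrophil granules, was 2.01, 4.40 and 25.9 CPM at the lowest, median and highest on d 0, and 4.50, 8.55 and 30.4 CPM on d 2. It was higher in 5 of 6 calves (log2 change 0.77 ± 0.29, and 0.61 ± 0.30 without calf 1755), and lower in calf 1803. CAMP names 2 bovine genes of the cathelicidin family of antimicrobial peptides. Both were close to the detection floor, with 8 and 13 counts over the 6 libraries of d 0 and d 2 for ENSBTAG00000024852 and 6 and 16 counts for ENSBTAG00000031599. Reads that fit more than 1 cathelicidin gene had been suppressed by the study's alignment. Summed over the neutrophil markers that could be named (3 of 24 symbols), the level was 40.4 to 203 CPM on d 0 and 50.4 to 318 CPM on d 2. ALPL made up most of this sum in each library. Of the 4 neutrophil genes tested all had estimates above 0, with a median log2 change of 0.91 (0.65 without calf 1755). Of these, 2 had an unadjusted p under 0.05, and 1 without calf 1755. The median holds both CAMP genes, which lay near the floor. The study's blood counts covered more control calves than were sequenced. In them the mean neutrophil percentage was higher and the mean lymphocyte percentage lower on d 2 than on d 0. Neither was marked as different from baseline on d 2. The part of cell numbers in the levels of these genes was not tested.

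Both immediate early transcription factors that could be named had estimates above 0, and genes of cytokine signalling were divided. FOS, a subunit of the AP-1 factor that responds within minutes to stimulation, was 58.0 CPM at the lowest, 98.8 CPM in the median and 213 CPM at the highest on d 0, and 84.8, 155 and 230 CPM on d 2. It was higher in 5 of 6 calves, with a small difference in calf 1789 (79.5 and 84.8 CPM) and a lower level in calf 1803. The log2 change was 0.49 ± 0.15 (unadjusted p = 0.00615), and 0.45 ± 0.18 without calf 1755. FOSB, a second AP-1 subunit, was higher in 4 of 6 calves, at 23.9 ± 4.65 CPM on d 0 and 30.0 ± 14.9 CPM on d 2 (log2 change 0.22 ± 0.22, and 0.27 ± 0.25 without calf 1755), and below 0 (-0.11) in the calves whose libraries shared a flowcell. IL15RA, which presents interleukin 15 to NK and memory T cells, was 24 ± 16.6 CPM on d 0 and 39.6 ± 23.0 CPM on d 2. Most of that difference came from calves 1789 (16.5 to 79.6 CPM) and 1755 (14.8 to 41.1 CPM), and 2 calves were lower on d 2. The estimate was 0.72 ± 0.28 with and 0.57 ± 0.30 without calf 1755. IL12B, the shared chain of interleukins 12 and 23, was higher in 5 of 6 calves, at 2.60 ± 1.01 CPM on d 0 and 4.15 ± 1.40 CPM on d 2 (log2 change 0.65 ± 0.30 with and 0.65 ± 0.35 without calf 1755). Other cytokines had estimates below 0, among them IL8, the chemokine that draws neutrophils, at -0.97 ± 0.68 (lower in 4 of 6 calves), and IL1A, an alarm cytokine, at -0.56 ± 0.60 (lower in 5 of 6), both at low counts.

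PIGR, the receptor that carries polymeric immunoglobulins across epithelia, had the second smallest p of the named genes higher on d 2. It was 4.10 CPM at the lowest, 11 CPM in the median and 20.8 CPM at the highest on d 0, and 6.81, 15.4 and 59.5 CPM on d 2. It was higher in 5 calves and nearly level in calf 1789 (8.99 and 8.84 CPM). In the fit the log2 change was 0.73 ± 0.21 (unadjusted p = 0.00323), and 0.80 ± 0.24 without calf 1755. NMUR2, a receptor of the neuropeptide neuromedin U, had the smallest p of the named genes, yet its counts came from few libraries. Of its 206 counts on d 2 most were from calf 1789, which had 4.06 CPM on d 0 and 44.2 CPM on d 2. Calves 1755 (0 to 7.44 CPM) and 1802 (0 to 2.63 CPM) were also higher, and the other 3 calves stood at 0 on d 2. Its fitted log2 change of 3.34 ± 0.70 (2.95 ± 0.70 without calf 1755) went with a sign permutation p of 0.25 (exact, two-sided).

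The remaining named genes higher on d 2 were of low level. HBB, the beta chain of haemoglobin, was 6.37 ± 2.32 CPM on d 0 and 10.4 ± 3.47 CPM on d 2, higher in 5 of 6 calves (log2 change 0.72 ± 0.26, and 0.50 ± 0.24 without calf 1755). Red cells had been lysed before extraction, and reads shared by globin genes had been suppressed. PROC, the precursor of the anticoagulant protein C, had 8 counts over the d 0 libraries and 32 over those of d 2, and was higher in 5 calves with the sixth at 0 on both days (log2 change 1.94 ± 0.64, and 1.78 ± 0.65 without calf 1755). CNGA3, a cyclic nucleotide-gated channel known from the retina, was 0.502 to 4.21 CPM on d 0 and 2.34 to 5.07 CPM on d 2. It was higher in 5 of 6 calves (log2 change 1.15 ± 0.42, and 0.88 ± 0.43 without calf 1755). SEMA5B, a semaphorin guidance protein, was 2.63 ± 2.02 and 4.43 ± 1.94 CPM on d 0 and d 2 and higher in 4 calves. GFPT2, an enzyme of the hexosamine pathway, was 1.06 ± 0.414 and 2.52 ± 2.05 CPM and higher in 4 calves. Without calf 1755 the log2 changes of SEMA5B and GFPT2 were 0.74 ± 0.38 and 1.31 ± 0.44, against 0.86 ± 0.35 and 1.07 ± 0.46 with it. TRPC5, a cation channel, was 4.89 ± 5.32 and 8.71 ± 5.96 CPM and higher in 4 calves. Its log2 change was 0.95 ± 0.44 with calf 1755, which went from 1.76 to 16.5 CPM, and 0.47 ± 0.39 without it.

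Both dendritic cell markers that could be named had estimates below 0, as most named genes had. FLT3, the receptor of the growth factor that dendritic cells and their precursors depend on, was lower in all 6 calves. On d 0 it was 5.80 CPM at the lowest, 9.02 CPM in the median and 11.8 CPM at the highest, and on d 2 it was 2.04, 4.42 and 8.73 CPM. The lowest of these, calf 1759, stood at the level of 3 counts. The estimate on the log2 scale was -0.82 ± 0.24 (unadjusted p = 0.00423) and the sign permutation p 0.0312 (exact, two-sided). Without calf 1755 the log2 change was -0.83 ± 0.27. FCER1A, a chain of the IgE receptor found on dendritic cells and basophils, was lower in 4 of 6 calves, at 14.7 ± 5.88 CPM on d 0 and 10.6 ± 5.74 CPM on d 2 (log2 change -0.51 ± 0.26, and -0.30 ± 0.26 without calf 1755). MS4A2, the beta chain of the same receptor on basophils and mast cells, was lower in all 6 calves, at 3.62 ± 1.86 and 2.10 ± 0.865 CPM (log2 change -0.78 ± 0.33, and -0.49 ± 0.34 without calf 1755). Summed over FLT3 and FCER1A, the 2 of 13 dendritic cell markers that could be named, the level was 13.3 to 34.4 CPM on d 0 and 9.52 to 25.7 CPM on d 2.

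**Figure D3:**
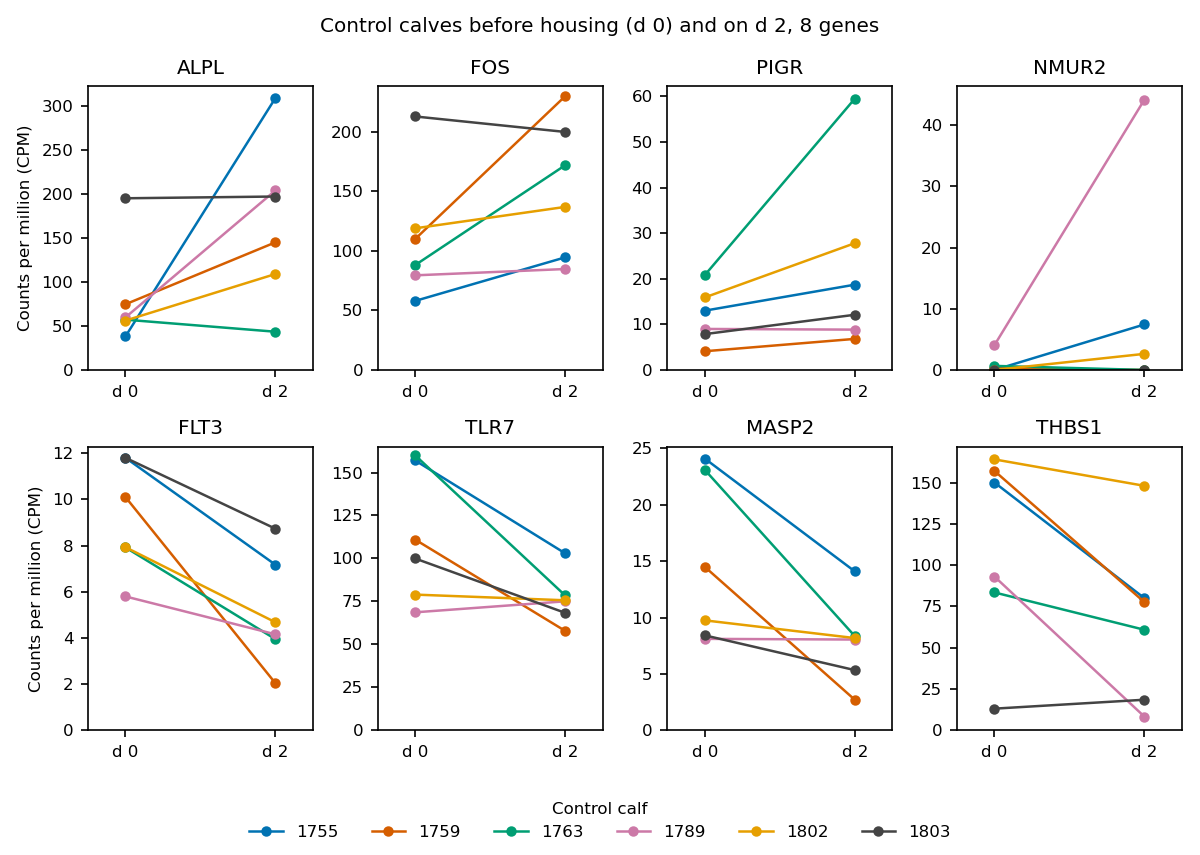
CPM of 8 genes on d 0 and d 2, with 1 line per control calf (n = 6) and each axis starting at 0. ALPL, FOS and PIGR are higher on d 2 in 5 of 6 calves and NMUR2 almost only in calf 1789 (4.06 to 44.2 CPM). FLT3 and MASP2 are lower in all 6 calves, TLR7 and THBS1 in 5 of 6, and the days overlap in each gene.

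The 3 Toll-like receptors that could be named had estimates below 0, as most named genes had. TLR7, which senses single-stranded RNA in endosomes, was 68.7 to 160 CPM on d 0 (mean 113 ± 38.7) and 57.9 to 103 CPM on d 2 (mean 76.5 ± 15.1). It was lower in 5 of 6 calves and slightly higher in calf 1789 (68.7 and 75.1 CPM). The log2 change was -0.51 ± 0.15 (unadjusted p = 0.00436), and -0.48 ± 0.17 without calf 1755. TLR3, the sensor of double-stranded RNA, was 33.4 ± 10.6 CPM on d 0 and 25 ± 6.38 CPM on d 2, lower in 5 of 6 calves (log2 change -0.39 ± 0.20). TLR10 was 23.6 ± 13.1 and 16.2 ± 6.87 CPM, lower in 4 of 6 calves (log2 change -0.41 ± 0.23). Over the 3 receptors the within-calf median was below 0 in 5 calves, from -0.93 in calf 1759 to -0.06 in calf 1802, and 0.25 in calf 1789. Without calf 1755 the log2 changes of TLR3 and TLR10 were -0.25 ± 0.21 and -0.31 ± 0.25.

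MASP2, the serine protease that starts the lectin pathway of complement, was lower in all 6 calves. It was 8.12 CPM at the lowest, 12.1 CPM in the median and 24.1 CPM at the highest on d 0, and 2.72, 8.12 and 14.1 CPM on d 2. In calf 1789 the difference was small (8.12 and 8.06 CPM). Its estimated log2 change was -0.83 ± 0.26 (unadjusted p = 0.00538), and -0.84 ± 0.29 without calf 1755. ANPEP, the aminopeptidase CD13 of myeloid cells, was lower in all 6 calves at a low level, with 2.24 ± 0.769 CPM on d 0 and 1.01 ± 0.712 CPM on d 2 (log2 change -1.15 ± 0.39, and -1.21 ± 0.45 without calf 1755). GCNT4, a glycosyltransferase, was lower in 4 of 6 calves, at 8.73 ± 3.97 and 4.10 ± 1.42 CPM. Calves 1789 and 1802 were nearly level, and the log2 change was -1.03 ± 0.32 with and -0.73 ± 0.31 without calf 1755. SV2C, a synaptic vesicle protein, ranged from 0 to 12.3 CPM on d 0 and from 0 to 7.32 CPM on d 2. It stood at 0 on both days in calf 1759, and its log2 change was -1.92 ± 0.61 with and -1.18 ± 0.48 without calf 1755.

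Genes of cytotoxic lymphocytes had estimates below 0, again like most named genes. GZMA, the granzyme that cytotoxic T cells and NK cells release, was 11.2 CPM at the lowest, 18.6 CPM in the median and 29.7 CPM at the highest on d 0. On d 2 it was 6.76, 12 and 29.6 CPM, lower in 5 of 6 calves and higher in calf 1789. The log2 change was -0.52 ± 0.24 (unadjusted p = 0.0423), and -0.58 ± 0.26 without calf 1755. KLRK1, the activating receptor NKG2D, was lower in 3 calves (1755, 1759 and 1763) and higher in the other 3, with means of 13.7 ± 6.86 and 8.56 ± 2.57 CPM (log2 change -0.56 ± 0.28, and -0.37 ± 0.29 without calf 1755). KLRD1, the receptor CD94, was 6.88 ± 4.52 CPM on d 0 and 4.61 ± 2.76 CPM on d 2, lower in 4 of 6 calves (log2 change -0.56 ± 0.30, and -0.70 ± 0.33 without calf 1755). Summed over these 3 of the 18 NK and cytotoxic markers, the level was 18.3 to 55.2 CPM on d 0 and 13.2 to 43.9 CPM on d 2. CTLA4, the checkpoint receptor of activated and regulatory T cells, had 49 counts on d 0 and 20 on d 2 and was lower in 5 of 6 calves (log2 change -1.19 ± 0.50, and -1.17 ± 0.58 without calf 1755). MAP3K7, the kinase TAK1 of the NF-kB pathway, was 48.6 ± 17.6 and 35.3 ± 7.88 CPM and lower in 5 of 6 calves (log2 change -0.42 ± 0.17, and -0.32 ± 0.18 without calf 1755).

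Several genes of DNA repair, replication and division were among the named genes with the smallest p. The study ties its control d 7 genes to DNA replication and the cell cycle, so the naming favours such genes. The part of the naming in this theme was not tested. BRCA2, which loads the recombinase in the repair of double-strand breaks, was lower in all 6 calves. It was 19.4 CPM at the lowest, 32.6 CPM in the median and 44.4 CPM at the highest on d 0, and 15.1, 22.0 and 31.8 CPM on d 2. In the fit the log2 change was -0.48 ± 0.15 (unadjusted p = 0.00691), and -0.42 ± 0.17 without calf 1755. RAD1, part of a checkpoint clamp for damaged DNA, was lower in all 6 calves, at 39.3 ± 12 and 27.6 ± 2.59 CPM (log2 change -0.47 ± 0.16, and -0.36 ± 0.17 without calf 1755). MCM10, a factor of replication initiation, was lower in all 6 calves, at 18.8 ± 5.52 and 12.1 ± 4.02 CPM. Its log2 change was -0.62 ± 0.21 with calf 1755, where it went from 26.6 to 9.37 CPM, and -0.42 ± 0.20 without. CDK1, the kinase that drives mitosis, was lower in all 6 calves, at 6.99 ± 3.35 and 4.57 ± 2.08 CPM (log2 change -0.58 ± 0.25, and -0.40 ± 0.25 without calf 1755). Of the 3 other mitotic markers that could be named, BUB1B of the spindle checkpoint was lower in 4 of 6 calves (log2 change -0.50 ± 0.24). CENPE, a kinetochore motor, was lower in 3 calves (-0.27 ± 0.31), and HMMR, a spindle protein, was higher in 4 (-0.03 ± 0.28). Over the 4 mitotic markers the median log2 change was -0.39, and -0.21 without calf 1755. CP110, a protein that caps centrioles, was 17.8 ± 8.51 and 10.5 ± 3.69 CPM, and TUBGCP5, a subunit of the gamma-tubulin ring, was 53.6 ± 25.9 and 33.7 ± 6.03 CPM. Each was lower in 5 of 6 calves and nearly level in calves 1789 and 1803, and their log2 changes of -0.68 ± 0.22 and -0.57 ± 0.18 were -0.60 ± 0.24 and -0.44 ± 0.19 without calf 1755. PSMA2, a proteasome subunit, had an estimate above 0 (log2 change 0.45 ± 0.26, and 0.63 ± 0.28 without calf 1755) and was higher in 5 of 6 calves.

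Single genes of transcription and translation also had estimates below 0, as most named genes had. BDP1, a subunit of the initiation factor of RNA polymerase III, was 83.2 ± 26.2 CPM on d 0 and 58.6 ± 8.81 CPM on d 2, lower in 5 of 6 calves and higher in calf 1789 (54.8 and 66.3 CPM). TAF5, a subunit of TFIID, was 22.1 ± 6.49 and 14.5 ± 2.95 CPM and lower in 5 of 6 calves. Its log2 change was -0.58 ± 0.21 with and -0.36 ± 0.19 without calf 1755. HBS1L, which rescues stalled ribosomes, was 36.7 ± 14.8 and 25 ± 5.41 CPM and lower in 5 of 6 calves. The log2 changes of BDP1 and HBS1L were -0.46 ± 0.15 and -0.49 ± 0.17, and without calf 1755 -0.35 ± 0.16 and -0.41 ± 0.18. RPL5, a ribosomal protein, was lower in all 6 calves, at 5.50 ± 2.96 and 3.44 ± 2.78 CPM (log2 change -0.78 ± 0.27, and -0.69 ± 0.29 without calf 1755). Its level is that of reads that align to a single place, since those shared with pseudogenes had been suppressed. HSPH1, a heat shock protein and co-chaperone, was 60.6 ± 19.1 and 44.6 ± 10.6 CPM and lower in 5 of 6 calves (log2 change -0.42 ± 0.20, and -0.32 ± 0.22 without calf 1755). In calf 1789 it was higher, at 34.5 and 61.4 CPM.

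Genes that the study itself had picked from these libraries for d 2 are not independent evidence of their direction. CCL22 is a chemokine of dendritic cells and macrophages, CCBP2 an atypical receptor that scavenges inflammatory chemokines, and CCRL1 an atypical receptor for homing chemokines. CCL22 had 4 counts over the 6 libraries of d 0 and 20 over those of d 2, and CCBP2 had 10 and 29. At so few counts their fitted log2 changes of 2.24 ± 0.91 and 1.45 ± 0.60 are not read as folds. The estimate for CCL22 was 1.49 without calf 1759 and 3.82 without calf 1803. Set against 3 counts per library on d 0, the d 2 means give bounds of only 1.37-fold (CCL22) and 1.7-fold (CCBP2). CCRL1 had 23 and 6 counts and was lower in all 6 calves (log2 change -1.84 ± 0.63, and -2.01 ± 0.83 without calf 1755). No library exceeded 3.41 CPM in any of these 3 genes. ABCC2, an efflux pump of organic anions, had 12 and 3 counts, at or under the floor on both days, and no fold is given. GLP1R, the receptor of an incretin hormone, had 14 and 30 counts and was higher in 4 of 6 calves (log2 change 1.23 ± 0.63, and 0.67 ± 0.67 without calf 1755). Of the symbols taken from the study's transport, GPCR and exon-level lists for d 2, 1 of 3, 1 of 3 and 1 of 4 could be named. THBS1, thrombospondin 1 of platelets and monocytes, was the only abundant gene among the study's d 2 genes described. The study picked THBS1 for differing exons and not for its whole-gene level, which is what is given here. It was 13.2 CPM at the lowest, 122 CPM in the median and 164 CPM at the highest on d 0, and 8.32, 69.2 and 148 CPM on d 2. Calf 1789 went from 93.1 to 8.32 CPM, and calf 1803 was low on both days (13.2 and 18.6 CPM). The estimate on the log2 scale was -0.85 ± 0.32 (unadjusted p = 0.0163), and -0.83 ± 0.37 without calf 1755. The platelet markers that could be named (4 of 14) summed to 8.54 to 17.7 CPM on d 0 and 8.55 to 16.3 CPM on d 2. ABCC5, another efflux pump of the ABC transporter list, was 7.67 ± 2.74 and 4.58 ± 1.69 CPM (log2 change -0.72 ± 0.31, and -0.58 ± 0.34 without calf 1755).

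Gene lists were described by counts and medians beside those of the named genes, of which 17.1% had an unadjusted p under 0.05 and whose median log2 change was -0.29. The 8 pathway lists below are the study's own, drawn up from comparisons that use no d 0 or d 2 library of the control calves, and were added after the counts were seen because few members of other lists could be named. Of 36 mitotic cell cycle genes 14 were lower at an unadjusted p under 0.05 and none higher, with a median log2 change of -0.42. Without calf 1755, 2 were lower and 1 higher, and the median was -0.25. Of 21 DNA replication genes, all of them in the cell cycle list too, 7 were lower and the median was -0.34 (-0.24 without calf 1755). Of 16 genes of the expression machinery 6 were lower and the median was -0.46 (-0.27 without calf 1755, with 1 lower). Of 13 immune signalling genes 3 were lower and the median was -0.42 (-0.31 without calf 1755, with none lower). Of 20 transport genes 1 was lower and the median was -0.42 (-0.21 without calf 1755).

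The medians of other lists lay on both sides of that of the named genes. Of 12 cytokine and receptor genes 1 was higher and 1 lower, with a median log2 change of -0.02, and of 15 haemostasis genes 1 was higher and none lower, with a median of -0.01. The 16 genes of GPCR signalling that the study listed for weaned calves on d 2 had a median of -0.11, and 1 was lower. Without calf 1755 the medians of these 3 lists were 0.04, 0.23 and 0.04. Of 7 inflammatory cytokines tested none had an unadjusted p under 0.05, 4 had estimates below 0, and the median was -0.02 (0.03 without calf 1755). The 2 endothelial markers tested, KDR and TEK, had a median of -0.71, the 2 genes of fatty acid oxidation, both named ACADM, of -0.53, and the 8 fibroblast and matrix markers of 0.84, with none of these 4 endothelial and ACADM genes at an unadjusted p under 0.05. Without calf 1755 the endothelial, ACADM and matrix medians were -0.53, -0.2 and 1.05. Of 8 chemokine and receptor genes 2 were higher and 1 lower, which are the 3 chemokine genes above.

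The calves differed in how far these lists moved. In calf 1755 all 36 cell cycle genes were lower on d 2, with a within-calf median of -0.96 in log2(CPM + 1). In calf 1759 the median was -0.70 (32 of 36 lower), in calf 1763 -0.39 (27 lower) and in calf 1802 -0.28 (28 lower). Calf 1803 was level, with a median of 0.00 (17 lower), and calf 1789 had the opposite sign, with a median of 0.24 (9 lower). The summed level of the 36 genes ran from 450 CPM (calf 1789) to 1150 CPM (calf 1755) on d 0 and from 453 to 678 CPM on d 2. The named genes as a whole had the same order of calves, with medians of -0.65 in calf 1755, -0.58 in calf 1759, -0.34 in calf 1763, -0.02 in calf 1802, 0.00 in calf 1803 and 0.21 in calf 1789. Over all genes tested the medians were between -0.11 and 0.01. Genes of at least 100 CPM (3167 genes) had a median log2 change of 0.12, and in calves 1755 and 1759 their medians were 0.27 and 0.30. The immune signalling list ran from -1.10 in calf 1759 to 0.36 in calf 1789.

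**Figure D4:**
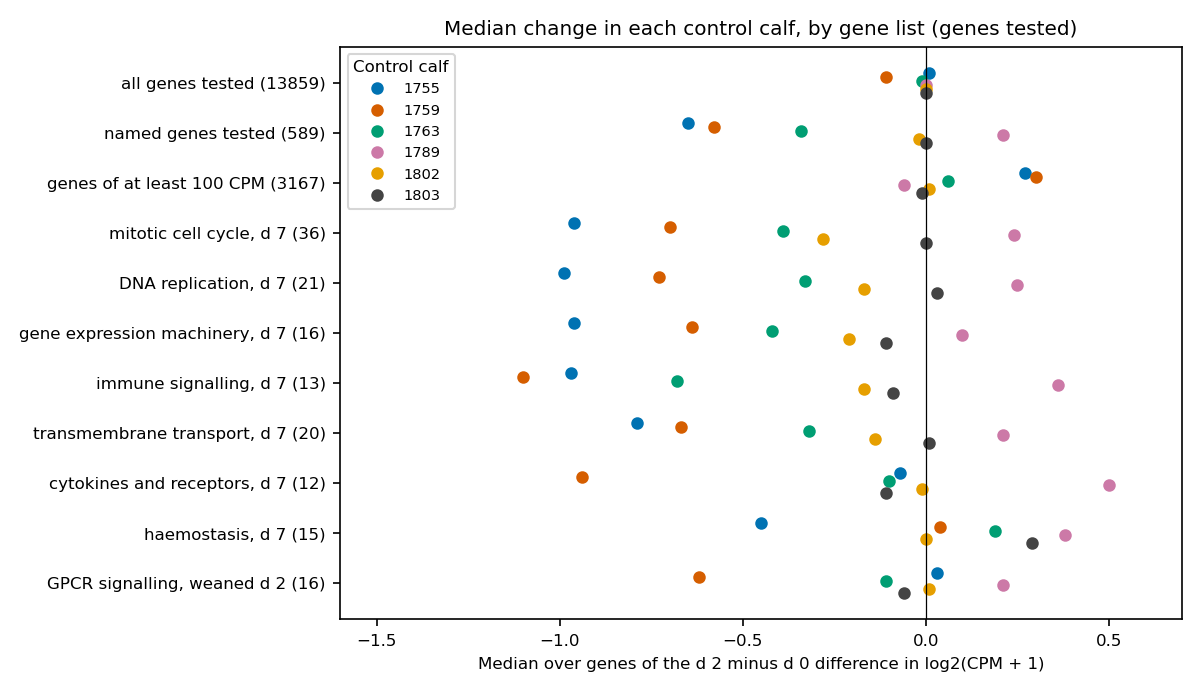
Median over genes of the difference in log2(CPM + 1) between d 2 and d 0 within each of the 6 control calves, for all genes tested, the named genes, genes of at least 100 CPM and 8 gene lists (number of genes tested in brackets). Calves 1755 and 1759 lie lowest in the cell cycle list (-0.96 and -0.70) and calf 1789 lies above 0 (0.24), whereas all genes tested stay between -0.11 and 0.01.

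Collagen genes, described after their values were seen, varied widely among calves. COL1A1, the main chain of type I collagen, is a gene of fibroblasts and osteoblasts that leukocytes are not known for. On d 0 it was 1.64 CPM at the lowest, 16.5 CPM in the median and 66.1 CPM at the highest, and on d 2 it was 0.292, 30.9 and 128 CPM. It was higher in calves 1759, 1763, 1789 and 1803 and lower in calves 1755 and 1802, and COL1A2 and COL3A1 had the same split. The log2 changes were 0.57 ± 0.64 for COL1A1 (-0.02 in the 4 calves whose libraries shared a flowcell), 0.61 ± 0.58 for COL1A2 and 0.52 ± 0.48 for COL3A1. Without calf 1755 they were 0.86 ± 0.66, 0.98 ± 0.57 and 0.94 ± 0.43. COL5A2, a chain of type V collagen, had 3 counts on d 0 and 18 on d 2, too few for a fold. Of 8 fibroblast and matrix markers tested 1 was higher at an unadjusted p under 0.05, and 3 without calf 1755. Summed over the 10 of these markers that could be named, tested or not, the level was 11.2 to 174 CPM on d 0 and 3.80 to 261 CPM on d 2. The highest on d 0 was calf 1755, where FBN1 gave 152 CPM.

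The same days were set beside each other in the weaned calves, which share no library with the controls. There no gene was called among 13984 (0.0%), and 336 (2.40%) had an unadjusted p under 0.05. The treatment by d 2 interaction, which tests whether the changes of control and weaned calves differ, was fitted to the 24 libraries of both treatments. It called none of 14733 genes (0.0%), with a smallest adjusted p of 0.505 in the edgeR test, and 1061 (7.20%) had an unadjusted p under 0.05. The differences are coded as control minus weaned change. Without calves 1755 and 1758 the interaction called none of 14426 genes, with a smallest adjusted p of 0.97 in the edgeR test, and 254 (1.76%) had an unadjusted p under 0.05. In weaned calves without calf 1758, none of 13695 was called and 356 (2.60%) had an unadjusted p under 0.05.

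FOS had an estimate above 0 in both treatments. In the weaned calves it was 112 ± 42.8 CPM on d 0 and 181 ± 61.8 CPM on d 2, higher in 6 of 6 (log2 change 0.68 ± 0.14), and the difference from the controls was -0.22 ± 0.23. FOSB was higher in 6 of 6 weaned calves, with a log2 change of 0.87 ± 0.20 against 0.22 ± 0.22 in the controls. ALPL was higher in 5 of 6 weaned calves (log2 change 0.72 ± 0.39), with a difference of 0.30 ± 0.58 (-0.43 without calves 1755 and 1758). FLT3 was higher in 5 of 6 weaned calves, at 8.15 ± 3.43 and 11 ± 4.16 CPM (log2 change 0.46 ± 0.31), where it was lower in all 6 controls. The difference was -1.32 ± 0.40 (unadjusted p = 0.0043, adjusted p = 0.505 in the edgeR test), and -1.18 without calves 1755 and 1758. TLR7 was 76.5 ± 29.7 and 104 ± 50.8 CPM in weaned calves, and its difference was -0.95 ± 0.30, or -0.68 without those calves.

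KLRK1 was higher in 6 of 6 weaned calves, from 7.09 ± 3.62 to 13.3 ± 7.35 CPM (log2 change 0.88 ± 0.36), and the difference from the controls was -1.46 ± 0.49 (-0.87 without calves 1755 and 1758). THBS1 was higher in 5 of 6 weaned calves, at 95.2 ± 33.2 and 155 ± 70.4 CPM, with a difference of -1.43 ± 0.54 (-1.49 without those calves). Of the genes described, the collagen genes had the largest estimates of a difference between treatments. COL1A1 was 79.1 ± 80.0 CPM on d 0 and 7.95 ± 9.35 CPM on d 2 in the weaned calves, lower in 5 of 6 (log2 change -3.18 ± 0.90), and the difference was 3.73 ± 1.32 (adjusted p = 0.505 in the edgeR test), or 3.99 without calves 1755 and 1758. COL1A2 and COL3A1 differed by 3.73 ± 1.24 and 3.37 ± 1.17. For the genes of division and repair the difference depended on the doubted libraries. BRCA2 differed by -0.88 ± 0.38 and CP110 by -1.17 ± 0.46, and without calves 1755 and 1758 these were -0.45 and -0.66.

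**Figure D5:**
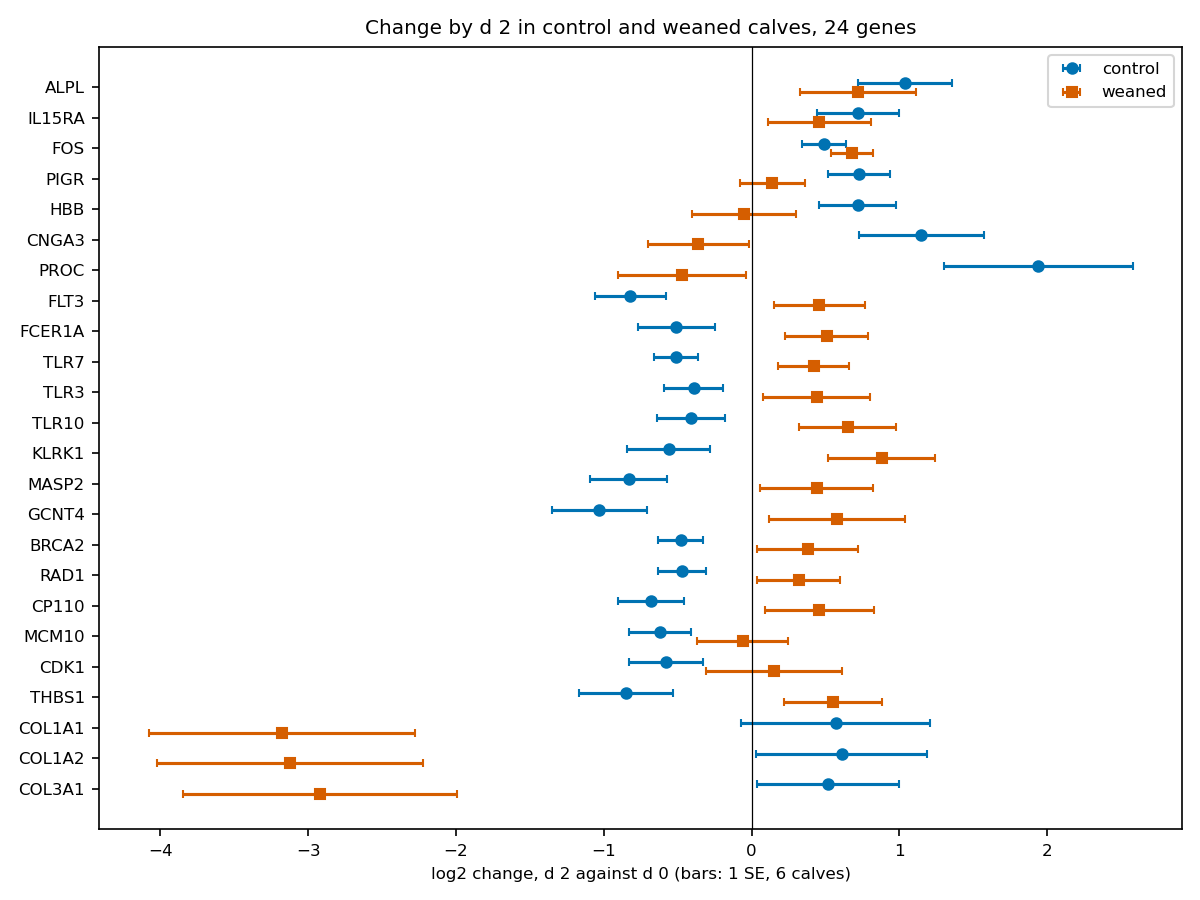
Estimated log2 change from d 0 to d 2 of 24 genes in the 6 control calves (circles) and the 6 weaned calves (squares), with bars of 1 SE. FLT3 and TLR7 lie below 0 in controls (-0.82 and -0.51) and above 0 in weaned calves (0.46 and 0.42), FOS lies above 0 in both (0.49 and 0.68), and the collagen genes are lowest in weaned calves (COL1A1 -3.18).

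For 7 of these genes, levels on the other days, from 1 scaling of the 24 control libraries, place d 2 within the course. Mean ALPL was 79.3 CPM on d 0, 81.2 CPM on d 1, 167 CPM on d 2 and 91.3 CPM on d 7, so that d 2 held the highest mean. IL15RA had the same shape, with 23.8, 21.9, 39.3 and 25.2 CPM. FOS was 137 CPM on d 1, 153 CPM on d 2 and 239 CPM on d 7, from 110 CPM on d 0. TLR7 was 112, 81.7, 76.0 and 52.9 CPM on d 0, 1, 2 and 7, MCM10 18.6, 12.8, 12 and 7.17 CPM, and BRCA2 31.6, 36.3, 22.4 and 18.6 CPM. THBS1 was lowest on d 2, with 109, 103, 65.2 and 101 CPM. These means are descriptions, since all later days are read against the same d 0 libraries. The genes were named for a small p of the change by d 2, or by the study for d 2 (THBS1). An extreme on d 2 is thus partly built in. The d 2 means hold the library labelled d 2 of calf 1755. Without that calf, in the scaling of the 12 libraries, the d 2 means of ALPL, IL15RA and THBS1 were 140, 39.3 and 62.6 CPM.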

How the data were processed

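Total leukocytes were isolated from blood by lysis of red cells, and mRNA was selected with oligo-dT. The authors deposited raw counts of single reads per Ensembl gene in 1 table. Per the methods, reads were aligned to Btau4.0 without mismatches, reads with several alignments were suppressed, 1 read per position was kept and counts were made in union mode. The submitters' processing notes name CASAVA 1.6, FastQC 0.9.1, Bowtie 0.12.7, HTSeq 0.4.6p2 and edgeR 1.6.12. Whether strand was used is not given in the sources used here, so overlapping genes cannot be told apart. Removing duplicates caps the counts of abundant short genes.

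Counts of the 12 libraries (1662995 to 4112564 in total) were tested with edgeR 4.0.16 (R 4.3.3, limma 3.58.1) by the quasi-likelihood F-test with TMM, calf as block and genes of at least 10 counts in total. Called genes passed the Benjamini-Hochberg adjustment at 0.05 and reached 2-fold. In simulated data the test called 43% of 200 genes changed 2-fold and 94% of those changed 4-fold. The simulated counts held no calf effect, flowcell effect or deviant library, and the changed genes had a mean of at least 1 CPM. Calls also needed an estimate of at least 2-fold, and genes raised 2-fold had a median log2 estimate of 0.994. These shares are therefore not the power of the test on the real libraries. Single genes had exact sign permutation tests on log2(CPM + 1). The 2 libraries of a calf come from 1 animal, and same-calf deviations correlated at 0.0426 to 0.523 (mean 0.325, 12214 genes).

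Named are the 15 genes of smallest p in each direction, the study's d 2 genes and up to 2 members per direction of each other list, with those said to be chosen after their values were seen. Some were left out for room. Members and lists were chosen with earlier results of these data known. Alternatives were RLE size factors, 3 other filters, a robust fit, no block, DESeq2 1.42.0, limma-voom, edgeR's exact test, fits over 24 or 48 libraries, calves with both libraries on 1 flowcell, and leaving out doubted libraries or each calf. Figures used Python 3.11.15, numpy 2.4.6, pandas 2.3.3 and matplotlib 3.10.9. No genome sequence or coordinates were used here, and genes that could not be named were not analysed by name.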

Additional observations from a re-analysis of the deposited data

Results flagged for a closer look

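Each of 75 sets of 6 values (library totals, and the within-calf differences of genes and lists) was searched for a value far from the others, which chance gives in about 1 of 20 sets, and 5 were found. Calf 1755 stood apart in the difference in log2(CPM + 1) between d 2 and d 0 of ALOX15 (-7.67), FBN1 (-5.06) and RYR3 (-4.92), which rest on the library labelled d 2 of that calf. These 3 genes were picked because calf 1755 stood apart in them, so the count is not to be read against that rate. Calf 1759 stood apart in FLT3 (-1.87) and in the total counts of its d 2 library (1662995). FLT3 in that library rests on 3 counts.

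Of the genes described, 28 had a change by d 2 that differed between control and weaned calves at an unadjusted p under 0.05 of the interaction in edgeR, against 1061 of all 14733 genes tested (7.20%). Most of the genes described were picked for a small p of the control change, which is part of this difference, so the 2 shares are not comparable. None passed the Benjamini-Hochberg adjustment (smallest adjusted p = 0.505 in the edgeR test). The differences, coded as control minus weaned log2 change, were below 0 for SV2C (-3.21), ABCC2 (-3.14), CCRL1 (-3.12), RYR3 (-2.40), GCNT4 (-1.64), RPL5 (-1.48), KLRK1 (-1.46), THBS1 (-1.43), FLT3 (-1.32) and MASP2 (-1.31). They were also below 0 for CP110 (-1.17), ENSBTAG00000015082 (-1.09), TLR10 (-1.08), FCER1A (-1.06), ABCC5 (-1.02), HSPH1 (-0.99), TLR7 (-0.95), BRCA2 (-0.88), RAD1 (-0.81) and FOSB (-0.68). Above 0 were COL5A2 (4.11), COL1A1 and COL1A2 (3.73 each), COL3A1 (3.37), PROC (2.42), SEMA5B (1.77), CNGA3 (1.52) and GFPT2 (1.41). The fitted values of ABCC2, COL5A2 and CCRL1 rest on few counts and are not read as folds. Calves 1755 and 1758 enter these differences, and without both 15 of the 28 had an unadjusted p under 0.05 and 13 did not. RYR3 was then -0.56, GCNT4 -0.86, RPL5 -1.07 and SV2C -1.63, each with an unadjusted p over 0.05.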

How the results depend on the processing

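No gene was called in the main fit, with 6 calves and calf as block. The study, with an older edgeR version, reported called genes for the same days of the control calves at the same thresholds. The source of this difference was not tested. DESeq2 called 1 gene, the fit with no filter on low counts 3 and the exact test with a common dispersion 18, and leaving out 1 calf gave 0 to 1. With no replicate block, so without the pairing by calf, 0 genes were called and 705 had an unadjusted p under 0.05, against 1283. That count was 681 with 24 control libraries in 1 fit (395 higher and 286 lower) and 689 with 48 libraries (318 and 371). In the 4 calves whose libraries shared a flowcell it was 284 (185 and 99), against 445 higher and 838 lower in the main fit of 6 calves. These counts come from unlike numbers of calves and are not directly comparable. Of those 838 lower genes, 68 (8.11%) were among the 99. With no block the count was 479 without the d 2 library of calf 1759 and 664 without that of calf 1755, against 705. Under the block it was 223 (129 higher and 94 lower) without both calves. Leaving out 1 calf under the block gave 358 (calf 1755) to 3011 (calf 1789). For calves 1763 and 1759 it was 522 and 613. The cause was not tested.

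Of the 62 genes described, 56 kept the sign of their estimate in each alternative run. ALOX15 was -0.04 with no block, and reversed when the d 2 library of calf 1759 (0.03) or of calf 1755 (0.22) was left out as well. Under the block it was 0.18 without both calves, and leaving out 1 calf gave -0.71 to 0.25. Without both calves FBN1 was 0.48, IL5RA 0.40 and RYR3 0.10, and leaving out 1 calf gave -1.01 to 0.39, -0.97 to 0.38 and -2.02 to 0.04. In calves sharing a flowcell COL1A1 was -0.02 and FOSB -0.11. Depth limits genes near 3 counts, and the library of calf 1759 most. The interaction and weaned comparisons called 0 genes in each alternative run.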
